A study of Homo sapiens
Mus musculus with 24 samples.

Results

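Integrins are cell-surface receptors built of 1 α and 1 β subunit that bind extracellular matrix or other cells and link them to the cytoskeleton. The subunit genes and integrin-linked kinase (ILK), which binds the tails of β subunits, were described here in MDA-MB-231 tumors and in the mouse tissue of the same tumors. All genes whose symbol begins with ITGA, or with ITGB and a single digit, were taken, with ILK, which gave 22 of 18880 genes in the human table and 26 of 16667 genes in the mouse table. The 4 members with a row only in the mouse table were Itgal, Itgam, Itgax and Itga2b, which code for subunits of leukocytes and platelets.

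MDA-MB-231 is an established line of triple negative breast cancer. Its cells were injected in Matrigel and collagen I, themselves integrin ligands, under the skin at the neck of female Rag1-null mice (B6/Rag1KO), which lack mature T and B cells and were 14 weeks old by the labels, and tumors passed 200 mm3 before mice were randomized. On a high fat diet, CTRL mice (n = 4) were given saline, Chemo mice (n = 5) weekly doxorubicin (2 mg/kg) and cyclophosphamide (100 mg/kg), MC mice (n = 5) a diet holding 0.6% moringa concentrate, and MC + Chemo mice (n = 6) both, for 4 weeks. Lean mice (n = 4) bore the same tumors on a lean diet with no intervention. Each library is 1 tumor of 1 mouse, is named by group and mouse number, and gives human reads from the tumor cells and mouse reads from the host.

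Human reads per library numbered 7796231 to 17621273 and mouse reads 3664056 to 9892470. Human reads made up 47.8% (MC 41) to 74.0% of a library, with a median of 65.7%. Values below are normalized counts, which are reads divided by 1 size factor for each library and genome, unless another scale is named. The libraries were made from the 3′ ends of transcripts, so that a transcript gives about 1 read whatever its length, and no division by length was made. In such whole-tumor libraries fewer cells of a type and less RNA per cell cannot be told apart.

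The tumor cells were first compared with their label. MDA-MB-231 is known as a mesenchymal line with little E-cadherin. CDH1, the gene of E-cadherin, which is also the ligand of integrin αE, had 1656 to 4472 normalized counts in 21 libraries, above what that description gives, and 2.73 in CTRL 17, 312 in CTRL 44 and 633 in Lean 24. EPCAM, an epithelial adhesion gene, had 2411 to 5399 in the same 21 libraries and 73.8, 552 and 1207 in CTRL 17, CTRL 44 and Lean 24. VIM, the gene of the mesenchymal filament vimentin, was at 71918, 50209 and 24619 in these 3 libraries and at 4402 to 21956 in the others. Other genes of the mesenchymal label were abundant in every library, with CD44 at 3783 to 5652 and SPARC at 7127 to 20097 in the 21 libraries and within these ranges in the 3 others. Among luminal genes ESR1 did not pass 88.3 and FOXA1 27.6 in any of the 21 libraries. The others were higher there, with KRT18 at 9360 to 20453, KRT8 at 2108 to 5364, ERBB2 at 341 to 769 and GATA3 at 253 to 708. KRT18, KRT8 and GATA3 lay below these ranges in CTRL 17, CTRL 44 and Lean 24, and ERBB2 in CTRL 17 only. By CDH1, EPCAM and VIM, CTRL 17, CTRL 44 and Lean 24 stood apart, with 2 of them among the 4 CTRL tumors that every treated group is compared with. Results that rest on them are given with and without them, a choice made after the data were seen.

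In the host reads, macrophage markers were abundant in every library (12 of 12 with a row, summed count 12147 to 40498). Of 11 T and B cell markers 3 had a row (Cd4, Cd8b1 and Cd79b, summed count 33.6 to 122). Of 10 human leukocyte markers 8 had a row, with a summed count of 402 to 993. The highest were PTPRC, with a median of 298 and a highest count of 619, and LAPTM5, with a median of 131 and a highest count of 574, while SPI1, the myeloid factor, did not pass 11.7.

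Tumor and host held different integrin genes. For each gene the human reads were taken as a share of its human and mouse reads in the same library, which needs no scaling between genes. The share was highest for ITGA3, the α subunit of a laminin receptor (median 98.2%, range 96.9 to 99.2% over 24 libraries). ITGB4, the β subunit of the laminin receptor of hemidesmosomes, followed at a median of 93.3% (88.8 to 95.3%). ITGAE, whose product binds E-cadherin, was at 90.5% (85.2 to 94.1%). ITGA2, a collagen receptor subunit of epithelial cells, was at 89.9% (87.1 to 95.5%) and ITGA5, the fibronectin receptor subunit, at 81.8% (78.0 to 86.4%). These 5 ranges lay above the human share of all reads in any library. ITGB6, a partner of αv, had a median of 88.4%, but its range of 50.0 to 92.2% reached into that of all reads through CTRL 17, the lowest, and the next library was at 85.3%.

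At the other end were genes read mostly from the host. ITGA11, a collagen receptor subunit of fibroblasts, had a median human share of 1.9% (0 to 7.69%). ITGA4, a subunit that binds VCAM1 and is used by leukocytes, was at 3.4% (0 to 6.78%). ITGA9, whose product binds tenascin C, was at 8.26% (3.39 to 17.9%) and ITGB3, a subunit of platelets, vessels and osteoclasts, at 8.36% (3.9 to 25%), with MC 41 the highest. ITGB1, the common partner of most α subunits, was the highest member in both genomes, with a median of 3086 human and 5179 mouse counts. Its human share, 32.01 to 44.5%, lay below the human share of all reads in every library.

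**Figure D1:**
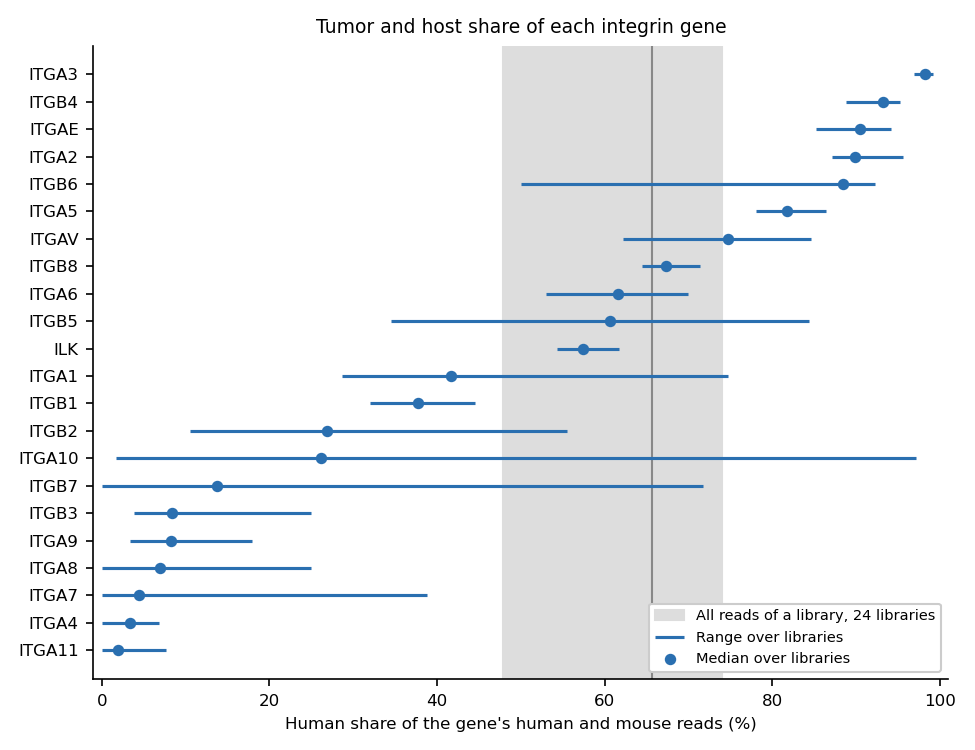
Human share of the human and mouse reads of each integrin gene, in percent. Points are medians and lines the range over 24 libraries, the grey band is the human share of all reads, 47.8 to 74.0%, and ITGA3, ITGB4, ITGAE, ITGA2 and ITGA5 lie wholly above the band while ITGB1, ITGB3, ITGA9, ITGA8, ITGA7, ITGA4 and ITGA11 lie wholly below it.

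The integrin genes together were compared as a part of all reads of a genome, in CPM (reads scaled to the same total in each library). In the tumor they held 1779 ± 231 CPM in CTRL (mean ± SD over the mice of a group), 1700 ± 57.6 in Lean, 1712 ± 111 in MC, 1712 ± 151 in Chemo and 1607 ± 274 in MC + Chemo. In the host they held 2425 ± 299 CPM in CTRL, 2424 ± 112 in Lean, 2086 ± 566 in MC, 2409 ± 183 in Chemo and 2078 ± 523 in MC + Chemo. No test was made of these sums. All group means lay within 1 SD of the CTRL mean, apart from the host means of MC and MC + Chemo, whose SDs were the widest in the host. The lowest host sums were 1194 CPM in MC 41 and 1216 in MC + Chemo 52, the libraries with the highest adipocyte marker sums (87908 and 108841). MC 41 also had a skeletal muscle sum of 53388. Higher muscle sums, 53893 in MC + Chemo 5 and 77380 in MC + Chemo 43, came with host integrin sums of 2124 and 1858 CPM. MC + Chemo 52 had the lowest tumor integrin sum as well, 1131 CPM. The part of adipocytes and muscle was not tested.

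Genes were compared by edgeR quasi-likelihood F tests over all genes of a genome, and a gene was called when its adjusted p was under 0.05, its mean normalized count above 30 and its fold change above 1.5. Of 22 human members 19 passed the filter on low counts. ITGA7, ITGA8 and ITGA11 did not, at median counts of 2.35 to 3.13. All 26 mouse members passed. Over 7 comparisons in each genome, the single call was human ITGA10 in MC + Chemo against CTRL. In that comparison 1.60% of all 16434 human genes tested were called, and 1 member of 19 is too few to set apart from that share.

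In the other 6 human and all 7 mouse comparisons edgeR called 0 members and 0% of all genes. At an unadjusted p under 0.05 stood 2 human members in MC against CTRL (10.7% of all genes), 5 in Chemo (18.2%), 5 in MC + Chemo (22.7%) and 1 in Lean (7.08%). Among 26 host members it was 1 in MC against CTRL (11.8% of all genes), 0 in Chemo (4.53%), 3 in MC + Chemo (12.4%) and 0 in Lean (3.11%). The host members were Itgb2 in MC and Itgal, Itgax and Itgb8 in MC + Chemo. DESeq2 called human ITGA10 in Chemo against CTRL (3.02% of all genes called) and in MC + Chemo against CTRL (4.46%). DESeq2 called no other member of either genome in the 7 comparisons, and against CTRL it called 0.0704% of human genes in MC and 0.00530% in Lean, and 0.0841%, 1.41%, 0.715% and 0.00601% of mouse genes in Chemo, MC, MC + Chemo and Lean.

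ITGA10 codes for the α10 subunit, a collagen receptor known best from cartilage, and the study had itself picked it out from these tumors. Human ITGA10 was at 62.0, 27.1, 329.7 and 25.96 in CTRL 17, 31, 44 and 70. In Chemo 19, 30, 33, 34 and 67 it was at 8.60, 5.60, 6.78, 1.12 and 2.86, which rest on 1 to 8 reads a library. In MC + Chemo it ran from 2.02 to 15.3 with a median of 9.28. All Chemo and all MC + Chemo tumors lay below the lowest CTRL tumor. In MC it was at 36.5, 14.1, 15.8, 16.5 and 21.8, which overlapped CTRL, and Lean tumors 3, 21, 24 and 54 had 15.3, 12.3, 108 and 27.0.

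The 3 highest of all 24 values of ITGA10 were CTRL 44, Lean 24 and CTRL 17, the libraries that stood apart. Against CTRL, ITGA10 fell in MC + Chemo, with a log2 difference of -3.62 (SE 0.64, edgeR adjusted p = 0.0305). The log2 difference in Chemo was -4.48 (SE 0.74, edgeR adjusted p = 0.0764), while DESeq2 gave -4.49 (SE 0.70, DESeq2 adjusted p = 1.94e-06). It was -2.43 (SE 0.65, edgeR adjusted p = 0.406) in MC and -1.46 (SE 0.73, edgeR adjusted p = 0.712) in Lean. ITGA10 passed the mean of 30 counts narrowly, at 31.5 over the 20 obese libraries.

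Without CTRL 17, CTRL 44 and Lean 24 the CTRL group held 2 tumors and ITGA10 was no longer called. Without CTRL 17 or CTRL 44 the mean count of ITGA10 was under 30, so such fits could not call ITGA10 at any p. Its log2 difference from CTRL was then -1.54 (SE 0.55, edgeR adjusted p = 0.306) in MC + Chemo, -2.42 (SE 0.59, edgeR adjusted p = 1.00) in Chemo and -0.36 (SE 0.57, edgeR adjusted p = 0.973) in MC. In that fit edgeR called 0 of 16977 human genes in MC + Chemo against CTRL, with 11.8% at an unadjusted p under 0.05. Leaving out CTRL 17, CTRL 44, MC + Chemo 47 or MC + Chemo 52 alone also ended the call of ITGA10, at log2 differences of -3.81, -2.04, -3.56 and -3.39, and over the 10 fits that each left out 1 library its edgeR adjusted p ran from 0.00695 to 0.104. The Chemo and MC + Chemo tumors lay below CTRL 31 and CTRL 70 as well, which follows from their lying below every CTRL tumor.

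**Figure D2:**
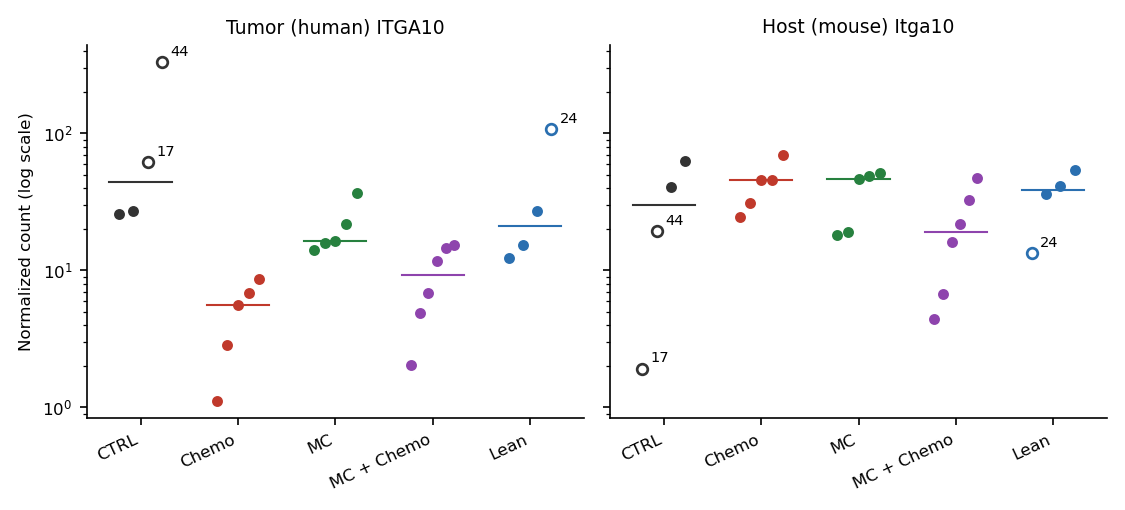
Normalized count of ITGA10 in the tumor (human reads) and of Itga10 in the host (mouse reads) for each library by group, on a log axis, with lines at group medians. All Chemo and MC + Chemo tumors lie below the lowest CTRL tumor at 25.96 in the human reads, and the groups overlap in the mouse reads.

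The host gene Itga10 did not separate the groups. The count was 1.92, 62.8, 19.2 and 40.8 in CTRL 17, 31, 44 and 70. It was 31.2, 69.8, 45.4, 45.5 and 24.7 in Chemo and 19.05, 18.1, 48.9, 51.6 and 46.6 in MC, ran from 4.40 to 46.9 with a median of 18.9 in MC + Chemo, and was 41.1, 54.3, 13.4 and 36.3 in Lean. All groups overlapped CTRL, and CTRL 17, among the highest tumors for human ITGA10, was the lowest library for mouse Itga10. The difference of human and mouse log2 CPM within each library was tested with limma over 10607 gene pairs. For ITGA10 it changed against CTRL by -4.34 (SE 0.92, limma adjusted p = 0.150) in Chemo and by -2.48 (SE 0.89, limma adjusted p = 0.241) in MC + Chemo, neither of which passed. Without the 3 libraries that stood apart the values were -1.88 (SE 0.73, limma adjusted p = 1.00) in Chemo and -0.01 (SE 0.72, limma adjusted p = 1.00) in MC + Chemo.

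Over all 19 integrin pairs limma called 0 in each of the 7 comparisons, in which 0.226% of all pairs were called in MC + Chemo against CTRL and 0% in the others. At an unadjusted p under 0.05 stood 1 pair in MC against CTRL (11.5% of all pairs), 3 in Chemo (10.8%), 4 in MC + Chemo (12.5%) and 1 in Lean (4.90%). In MC + Chemo these were the pairs of ITGA10, ITGA2, ITGAV and ITGB7.

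Of the other collagen receptor subunits, ITGA2 had the second highest mean of the human members. In CTRL 17, 31, 44 and 70 the count was 1535, 2020.4, 2170.1 and 2331. In Lean it was 2234, 2179.5, 2812 and 2638, in MC 3154, 2521, 2081, 1904 and 2119.7 and in Chemo 1847, 2322, 2485, 2272 and 3245, and in MC + Chemo it ran from 1127 to 3594 with a median of 2006. Every group overlapped CTRL. ITGA1, whose product binds collagen IV, had a median of 123 human and 183 mouse counts. Host Itga11 ran from 46.1 to 277 counts and had a median of 171.

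Among laminin receptors, ITGA6 codes for an α subunit that pairs with β1 or β4. CTRL 17, 31, 44 and 70 had 3332, 1825, 4349 and 2359 counts. MC + Chemo ran from 1129 to 2645 with a median of 2023, Chemo had 1672, 1191, 1489, 1703 and 2686, MC had 3207, 2469, 2118, 1492 and 1516 and Lean had 2016, 1264, 2984 and 2509. The highest 2 values of all were CTRL 44 and CTRL 17, and every group overlapped CTRL. The log2 difference of Chemo from CTRL was -0.78 (SE 0.29, edgeR adjusted p = 0.167), and without the libraries that stood apart -0.27 (SE 0.31, edgeR adjusted p = 1.00).

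Host Itga6 was the second highest mouse member. Counts of 1510.5, 1141, 2965 and 1284 were found in CTRL 17, 31, 44 and 70. Those of MC were 2005, 1254, 1326, 923 and 1124, those of Lean 1252, 940.1, 1654 and 1394 and those of Chemo 1267, 965, 1090.2, 1066 and 1925, while MC + Chemo ran from 716 to 2555 with a median of 1214. CTRL 44 was the highest of 24 libraries for both the human and the mouse gene.

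ITGA3, whose product pairs with β1 to bind laminin-332, was the fifth highest human member by mean. The count was 2330.5, 1535, 4433 and 1592 in CTRL 17, 31, 44 and 70. It was 1811, 1508, 1938, 1487 and 2276 in Chemo and 1973, 2537, 2034, 1988 and 2173 in MC, ran from 898 to 2477 with a median of 1795 in MC + Chemo, and was 2501, 1742, 2084 and 2022 in Lean. CTRL 44 was the highest of 24 tumors, and every group overlapped CTRL. Host Itga3 had a median of 37.7 counts.

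The subunits of the αv family, which bind RGD sequences of fibronectin, vitronectin and latent TGF-β, included 3 genes that were at their lowest in the libraries that stood apart. ITGB8, whose product with αv activates TGF-β, was the fourth highest human member by mean. In CTRL 17, 31, 44 and 70 the count was 103, 2701, 558 and 2310.1. In Lean it was 1766, 2578, 588 and 2139, in MC 1482, 1912, 2448, 2130.3 and 1939 and in Chemo 1926, 3268, 2977, 2907 and 2488, and in MC + Chemo it ran from 1611 to 3185 with a median of 2489. CTRL 17, CTRL 44 and Lean 24 were the 3 lowest of 24 tumors, and the other 21 tumors began at 1482. ITGB6, the epithelial partner of αv, was at 1.82, 63.0 and 139.8 in CTRL 17, CTRL 44 and Lean 24 and at 219 to 449 in the other 21 tumors. ITGAV, the α partner of both, was at 309.9, 347 and 514 in the same 3 tumors and at 642 to 911 in the others.

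So the 3 genes of the αvβ6 and αvβ8 receptors were lower in CTRL 17, CTRL 44 and Lean 24 than in any other tumor, and ILK and ITGA10 were higher there than in any other tumor. ITGB6 and ITGAV were named after their values were seen. These 5 of the 22 human members placed all 3 libraries beyond the range of the other 21, beside 10.4% of all human genes that passed the filter. In the host the members that did so were 3 of 26, Itgb8, Itgb6 and Itga8, all lower, beside 1.12% of all mouse genes. Itga8, of mesenchymal cells, was at 1.92, 3.84 and 5.75 there and at 7.94 to 94.7 elsewhere, and Itgb6 was at 1.92, 15.4 and 15.3 there and at 27.2 to 79.1 elsewhere. No test was made of these libraries against the rest. Human ITGB8 and ITGB6 were low in the same 3 libraries. Whether human reads were counted as mouse reads was not tested, and the host values of Itgb8 and Itgb6 are uncertain to that extent.

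**Figure D3:**
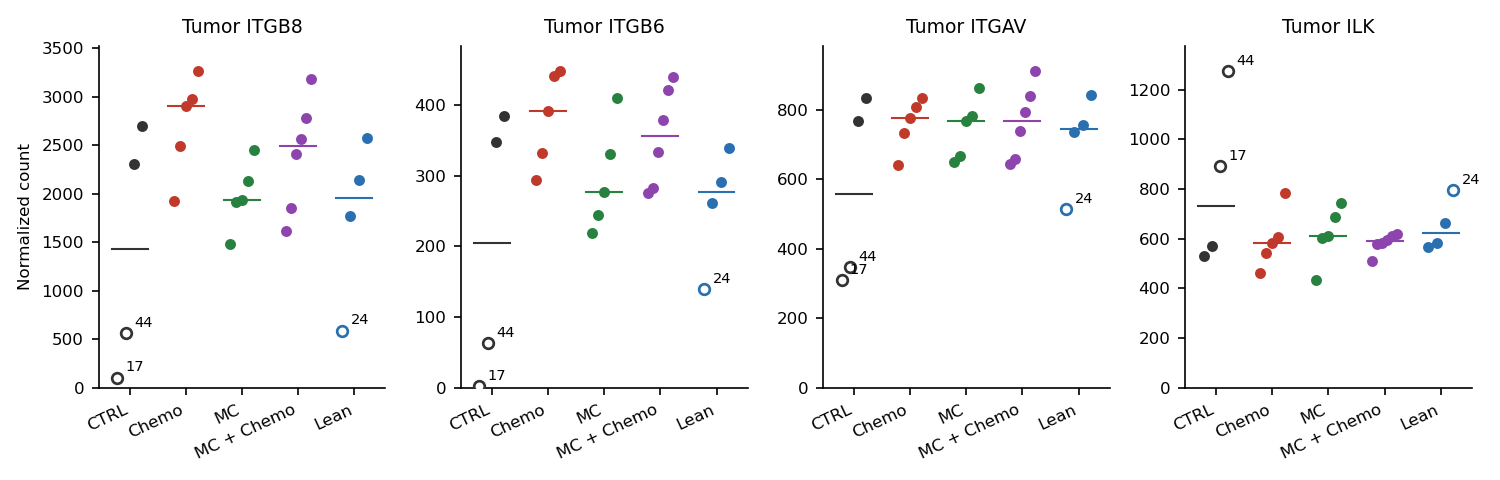
Normalized counts of human ITGB8, ITGB6, ITGAV and ILK in each tumor by group, with lines at group medians and open circles for CTRL 17, CTRL 44 and Lean 24. The open circles are the lowest 3 of 24 tumors for ITGB8, ITGB6 and ITGAV and the highest 3 for ILK.

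In MC + Chemo against CTRL, 9 of 19 human members were higher and 10 lower, with a median log2 difference of -0.31, beside -0.02 over all genes. The 5 members with an unadjusted p under 0.05 were ITGA10, ILK, ITGA6 and ITGA4, which were lower, and ITGB7, which was higher. Without CTRL 17, CTRL 44 and Lean 24, ITGA10 was the single member with one. In Chemo against CTRL the count went from 5 to 1, again ITGA10, and in MC against CTRL from 2 to 0. The share of all genes with such a p fell too, to 11.8% in MC + Chemo, 3.31% in Chemo and 5.02% in MC, with CTRL down to 2 tumors. In the fit without them 7 of 19 members were higher in MC + Chemo, 6 of 19 had changed sign and the median log2 difference was -0.06.

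**Figure D4:**
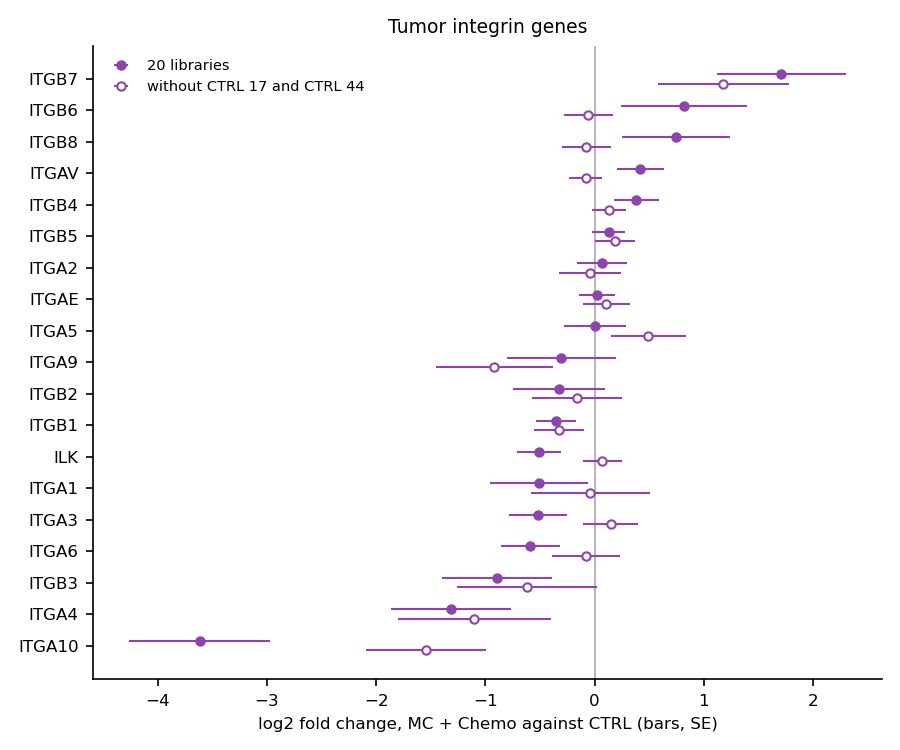
log2 fold change of 19 human integrin genes in MC + Chemo against CTRL, with SE as bars, in the fit of 20 libraries (filled) and in the fit without CTRL 17 and CTRL 44 (open). ITGA10 goes from -3.62 to -1.54 and ILK from -0.51 to 0.07.

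ITGB1 codes for the β1 subunit. CTRL 17, 31, 44 and 70 had 4037, 3655, 3219 and 3353 counts. MC + Chemo ran from 1426 to 3791 with a median of 2962, Chemo had 2941, 2948, 2448, 3068 and 3089, MC had 3218, 3799, 3778, 2705 and 2885 and Lean had 3084, 2920.1, 2771 and 3514. All Chemo tumors lay below all CTRL tumors, which leaving out CTRL 17 and CTRL 44 cannot change. The log2 difference of Chemo from CTRL was -0.31 (SE 0.19, edgeR adjusted p = 0.389). In Chemo against CTRL 2 of 19 members did not overlap, ITGB1 and ITGA10, beside 3.24% of all human genes.

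In MC + Chemo against CTRL 3 of 19 human members did not overlap, beside 5.26% of all genes. Beside ITGA10 these were ITGB7, a leukocyte β subunit, above CTRL, and ITGA4 below it, with mean counts of 12.7 and 6.95 that lie under the mean required of a call. In MC and in Lean against CTRL 0 of 19 human members did not overlap, beside 1.47% and 2.21% of all genes.

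Host Itgb1 was the highest mouse member. Counts of 5571, 5621, 7629.5 and 4534 were found in CTRL 17, 31, 44 and 70. Those of MC were 6109.9, 5136, 6088, 4628 and 5222, those of Lean 5286, 4635, 5608 and 5927 and those of Chemo 4996, 4917, 4582, 4279 and 6043, while MC + Chemo ran from 2321 to 8129 with a median of 4458. The groups overlapped. MC + Chemo 52 was the lowest of all libraries for 7 of 22 human and 13 of 26 mouse members, and its mouse reads held the highest adipocyte marker sum (108841, against 668 to 87908 elsewhere, 10 of 10 markers with a row). The part of that sum in the low host values was not tested.

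ITGB5 codes for another partner of αv. The count was 1279.6, 1549, 1737 and 1255 in CTRL 17, 31, 44 and 70. It was 1138, 1563, 871, 1469.5 and 1407 in Chemo and 1785, 1447, 1393, 1489.98 and 1729 in MC, ran from 1401 to 1902 with a median of 1566 in MC + Chemo, and was 1385, 1245, 1758 and 1289.6 in Lean. Host Itgb5 was at 640.5, 1034, 889 and 892 in CTRL, at 831, 913, 1474, 874 and 819.9 in Chemo, at 608, 541, 1087, 925 and 1138 in MC, at 459 to 1019.6 with a median of 795 in MC + Chemo and at 897, 936, 798 and 849 in Lean. In Chemo 33 the human gene was the lowest and the mouse gene the highest of 24 libraries.

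Itgb2 was, by median, read mostly from the host. It codes for the β2 subunit shared by LFA-1, Mac-1 and αXβ2. In CTRL 17, 31, 44 and 70 the count was 592, 561, 582 and 629.7. In Lean it was 664, 434, 647 and 603, in MC 227, 338, 523, 485 and 499.8 and in Chemo 449, 406, 392.3, 506 and 455, and in MC + Chemo it ran from 322 to 599 with a median of 504. Every Chemo and every MC mouse lay below every CTRL mouse, while MC + Chemo and Lean mice overlapped CTRL. Itgb2 was the single one of 26 host members that did not overlap in Chemo against CTRL and in MC against CTRL, beside 1.39% and 2.09% of all mouse genes, and in MC + Chemo (2.54% of all genes) and Lean (2.93%) 0 members did not overlap.

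The log2 difference of Itgb2 from CTRL was -0.42 (SE 0.21, edgeR adjusted p = 1.00) in Chemo and -0.50 (SE 0.21, edgeR adjusted p = 0.350) in MC. Without the libraries that stood apart it was -0.44 (SE 0.27, edgeR adjusted p = 1.00) and -0.53 (SE 0.27, edgeR adjusted p = 0.844). The lowest Itgb2 value, in MC 6, came with the lowest macrophage marker sum (12147), and that of MC 41 with the second lowest (20472, against 24919 to 40498 in the other 22 libraries). The macrophage sum ran from 25402 to 40498 in Chemo and from 26293 to 31170 in CTRL. Chemo 19 had the highest sum, with an Itgb2 count below every CTRL mouse. In MC + Chemo, where Itgb2 went down to 322, below MC 41, the sum ran from 28685 to 38250. The part of the macrophage sum in the Itgb2 values was not tested.

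Itgax codes for the αX subunit of macrophages and dendritic cells. CTRL 17, 31, 44 and 70 had 298, 649.8, 938 and 686 counts. MC + Chemo ran from 149 to 614 with a median of 354, Chemo had 339.6, 472, 475, 442 and 382, MC had 287, 336, 577, 624.9 and 789.8 and Lean had 599.8, 492, 653 and 543. The groups overlapped. The log2 difference of MC + Chemo from CTRL was -0.83 (SE 0.38, edgeR adjusted p = 0.381), and without the libraries that stood apart -0.92 (SE 0.44, edgeR adjusted p = 0.527). The 3 lowest values were those of MC + Chemo 52, 43 and 47. The dendritic marker sum (7 of 7 markers with a row) ran from 147 to 407 in MC + Chemo and from 245 to 447 in CTRL. The macrophage sum went the other way, at 28685 to 38250 (median 35148) in MC + Chemo and 26293 to 31170 (median 29905) in CTRL. MC + Chemo 43 had the highest skeletal muscle sum of all libraries (77380). The part of these sums was not tested.

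Itgam, the αM subunit of macrophages and neutrophils, had a median of 309 mouse counts, Itgal, the αL subunit, 124, and Itgb7, of lymphocytes and mast cells, 56.6. Platelet Itga2b had a median of 17.3. In the tumor reads ITGB2 had a median of 203 counts, from 52.01 to 521. Its human share ran from 10.6% in Chemo 33 to 55.6% in MC + Chemo 25, so that tumor and host reads of this gene did not keep 1 ratio.

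The other human members are given by their median and range over 24 tumors. ITGB4 was at 1446 (474 to 1826), ITGA5 at 681 (325 to 1040.3) and ITGAE at 190.1 (153 to 309). ITGA9 was at 20.2 (5.41 to 55.7), ITGB3 at 14.4 (5.39 to 39.6), ITGB7 at 12.3 (0 to 38.7) and ITGA4 at 7.36 (0 to 15.3). These 4 lay under the mean of 30 counts required of a call. CTRL 17 was the lowest tumor for ITGB4, the partner of α6.

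Of the other host members, Itga2 was at 240.1 (68.7 to 657), Itgav at 248 (152 to 363), Itga9 at 226 (81.0 to 331) and Itga4 at 212 (46.7 to 354). Itgb3 was at 154 (29.9 to 244), Itga5 at 139 (67.8 to 349.6), Itgb4 at 109 (26.9 to 194), Itga7, of muscle, at 80.2 (2.88 to 171) and Itgae at 19.6 (11.2 to 44.4). MC + Chemo 52 was the lowest library for Itga2, Itgav, Itga9, Itga4, Itgb3 and Itga5.

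ILK codes for the kinase-like adaptor bound to β tails. Counts of 892, 569.5, 1276 and 529.7 were found in CTRL 17, 31, 44 and 70. Those of MC were 434, 745, 685, 601 and 611, those of Lean 662, 582, 794 and 566 and those of Chemo 543, 461, 782, 582 and 606, while MC + Chemo ran from 508 to 618 with a median of 589. CTRL 31 and CTRL 70 lay inside the narrow range of MC + Chemo, and CTRL 17 and CTRL 44 above it. The log2 difference from CTRL was -0.51 (SE 0.20, edgeR adjusted p = 0.145) in MC + Chemo and -0.47 (SE 0.21, edgeR adjusted p = 0.239) in Chemo. Without the libraries that stood apart the sign turned, to 0.07 (SE 0.18, edgeR adjusted p = 0.899) and 0.10 (SE 0.18, edgeR adjusted p = 1.00).

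Host Ilk had a median of 427 over all libraries. The count was 583, 405, 1256 and 377 in CTRL 17, 31, 44 and 70. It was 421, 307, 581, 356 and 573 in Chemo and 389, 463, 496, 397 and 418 in MC, ran from 383 to 718 with a median of 437 in MC + Chemo, and was 429, 381, 610.3 and 429 in Lean. CTRL 44 was the highest library for both genes.

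The remaining comparisons gave no call in either genome. MC + Chemo against Chemo gave 2 of 19 human members with an unadjusted p under 0.05 (10.4% of all genes) and 1 of 26 host members (11.0%), the latter being Itgb7 at -0.99 (SE 0.40, edgeR adjusted p = 0.376). MC + Chemo against MC gave 1 human (7.95%) and 1 host member (9.87%), the latter Itga1 at -0.79 (SE 0.33, edgeR adjusted p = 0.489). The interaction of MC with chemotherapy, which asks whether the effect of one depends on the other, gave 2 human (9.74%) and 2 host members (6.87%), which were ITGA10, ITGB4, Itgam and Itgb2. For ITGA10 it was 3.30 (SE 0.98, edgeR adjusted p = 0.511), and without the libraries that stood apart 1.23 (SE 0.75, edgeR adjusted p = 0.994).

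The host reads of some members followed the tumor reads closely. Host Itgb8 was the third highest mouse member. In CTRL 17, 31, 44 and 70 the count was 52.8, 1202, 332 and 1063. In Lean it was 713, 1031, 265 and 1014, in MC 764, 663, 1224, 844 and 919 and in Chemo 1114, 1737, 1156, 1069 and 1532, and in MC + Chemo it ran from 800.0 to 1735 with a median of 1492. CTRL 17, CTRL 44 and Lean 24 were again the 3 lowest of 24. The log2 difference of MC + Chemo from CTRL was 1.04 (SE 0.49, edgeR adjusted p = 0.395), and without those 3 libraries 0.25 (SE 0.28, edgeR adjusted p = 0.804). For each 100 human ITGB8 reads a library held 40.03 to 55.1 mouse Itgb8 reads, while human ITGB8 ranged over 31.7-fold. For ILK there were 62.002 to 84.2 mouse reads for each 100 human reads. All genes together gave 35.2 to 109 mouse reads for each 100 human reads, with MC 41 at 109 and the other 23 libraries at 35.2 to 66.3, and in MC 41 the values were 44.98 for ITGB8 and 80.7 for ILK.

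The SD over libraries of the log2 ratio of mouse to human reads was 0.10 for ITGB8, 0.13 for ILK and 0.21 for ITGB1, against a median of 0.48 over 8599 gene pairs with a mean above 30 reads in both genomes. Of these pairs, 3.08% had a smaller SD than ITGB8 and 5.07% a smaller SD than ILK. At the other end ITGB5 had an SD of 0.68, ITGB2 of 0.79 and ITGA10 of 2.23. How reads that match both genomes were assigned is not given in the sources used here. Whether reads of 1 genome were counted in the other was not tested. The host values of Itgb8, Ilk, Itgb1 and Itga5 (SD of ITGA5 0.23), and the human shares drawn from such counts, are uncertain to that extent.

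**Figure D5:**
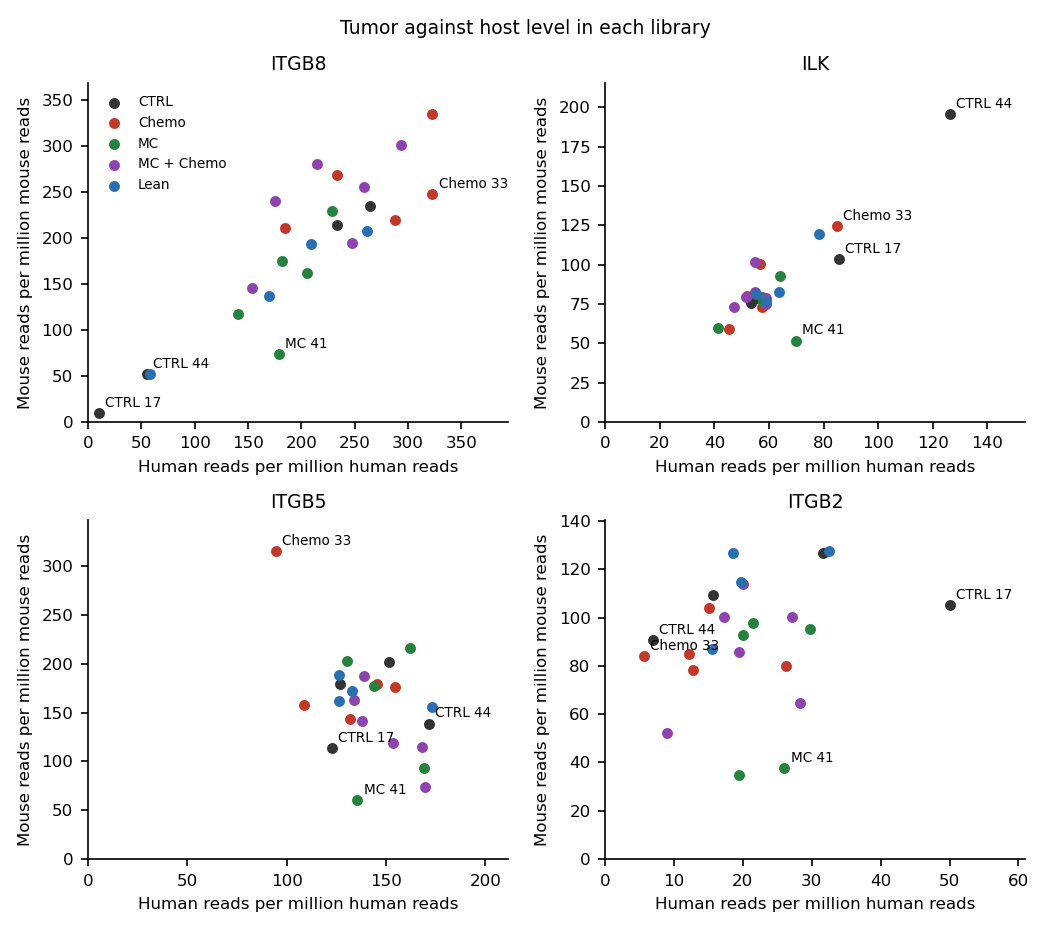
CPM of the human gene against CPM of the mouse gene for ITGB8, ILK, ITGB5 and ITGB2 in 24 libraries, colored by group. ITGB8 rises together in both genomes, while ITGB5 and ITGB2 spread widely, with Chemo 33 highest in mouse and lowest in human ITGB5.

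The partners of integrins inside and outside the cell were taken as 2 lists, of adaptors, kinases and regulators (38 human and 40 mouse genes, all tested) and of ligands (28 of 32 human and 31 of 32 mouse genes tested). Of the human adaptors edgeR called 1 of 38 lower in MC + Chemo against CTRL, where 1.14% of all genes were called lower, and 0 in the other 6 comparisons. This was APBB1IP, the Rap1 effector that brings talin to integrins. APBB1IP was at 1202, 232, 653 and 162 in CTRL 17, 31, 44 and 70 and at 47.8 to 276 in MC + Chemo, with CTRL 17 and CTRL 44 the highest. It fell by 1.93 on the log2 scale (SE 0.48, edgeR adjusted p = 0.0430), and without CTRL 17, CTRL 44 and Lean 24 the difference was -0.41 (SE 0.47, edgeR adjusted p = 0.754).

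DESeq2 called 3 adaptors lower in Chemo against CTRL (APBB1IP, FERMT2 and TGFB1I1, beside 1.92% of all genes) and 2 in MC + Chemo (APBB1IP and FERMT2, beside 2.50%). FERMT2, the gene of kindlin-2, which activates integrins with talin, was at 1692, 583, 1380.3 and 821 in CTRL and at 464, 367, 495, 545 and 639 in Chemo, with CTRL 31 inside the Chemo range. The log2 difference of FERMT2 in Chemo was -1.15 (SE 0.28, DESeq2 adjusted p = 0.00712). By edgeR, which did not call it, it was -1.17 (SE 0.27, edgeR adjusted p = 0.0764) with all libraries and -0.50 (SE 0.25, edgeR adjusted p = 1.00) without those that stood apart. TGFB1I1, the gene of the paxillin relative Hic-5, was at -1.55 (SE 0.34, DESeq2 adjusted p = 0.00262). By edgeR it was at -1.56 (SE 0.33, edgeR adjusted p = 0.0764) with all libraries and at -0.49 (SE 0.28, edgeR adjusted p = 1.00) without those 3. By edgeR 30 of 38 adaptors were lower in Chemo than in CTRL, with a median log2 difference of -0.18, beside -0.02 over all genes, and 14 of 38 had an unadjusted p under 0.05, beside 18.2% of all genes. Of all genes 47.7% were higher in that comparison, against 8 of 38 adaptors. In MC + Chemo 24 of 38 were lower than in CTRL and 11 of 38 had an unadjusted p under 0.05, beside 22.7% of all genes. These directions against CTRL turned without the libraries that stood apart. In that fit 20 of 38 adaptors were higher in Chemo, with 1 at an unadjusted p under 0.05, and 27 of 38 were higher in MC + Chemo, with 2 at such a p. Without CTRL 44 alone 25 of 38 were higher in MC + Chemo. Against Chemo, a comparison without CTRL, 30 of 38 adaptors were higher in MC + Chemo, where 51.3% of all genes were higher. The median log2 difference was 0.16, beside 0.01 over all genes. Of the 38, 3 had an unadjusted p under 0.05 by edgeR, beside 10.4% of all genes. In the fit without the 3 libraries 30 of 38 were again higher.

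Of the 28 human ligands edgeR called 0 in any comparison, and 6 had an unadjusted p under 0.05 in MC + Chemo against CTRL, near the 22.7% of all genes. DESeq2 called 3 higher there, beside 1.96% of all genes. These were FN1 (fibronectin), ICAM1 (a ligand of β2 integrins) and LAMB3 (a chain of laminin-332). FN1 was at 7906, 36704, 13726 and 27120.4 in CTRL 17, 31, 44 and 70 and at 28339.9 to 47207 in MC + Chemo, with CTRL 17 and CTRL 44 the lowest. Its log2 difference was 0.90 (SE 0.29, DESeq2 adjusted p = 0.0369). By edgeR it was 0.88 (SE 0.29, edgeR adjusted p = 0.0885) with all libraries and 0.30 (SE 0.21, edgeR adjusted p = 0.585) without CTRL 17, CTRL 44 and Lean 24. ICAM1 had a log2 difference of 1.02 (SE 0.29, DESeq2 adjusted p = 0.0173). The edgeR values of ICAM1 were 1.00 (SE 0.28, edgeR adjusted p = 0.061) with all libraries and 0.41 (SE 0.21, edgeR adjusted p = 0.446) without the same 3. LAMB3 had 0.72 (SE 0.23, DESeq2 adjusted p = 0.0321). The edgeR values of LAMB3 were 0.70 (SE 0.22, edgeR adjusted p = 0.0764) and 0.35 (SE 0.23, edgeR adjusted p = 0.550).

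In the host, neither edgeR nor DESeq2 called any of 40 adaptors or 31 ligands tested in the 7 comparisons, and edgeR gave 3 adaptors and 3 ligands an unadjusted p under 0.05 in MC + Chemo against CTRL, where 12.4% of all mouse genes had one.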

How the data were processed

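RNA of 24 tumors was read as QuantSeq 3′ libraries with 50-base forward reads. The authors aligned and counted the reads with BlueBee, and the deposited counts are whole reads per gene, in 1 table per genome. The normalized signal deposited by the authors is those counts divided by 1 size factor per library (human 0.733 to 1.65, mouse 0.518 to 1.68). The submitters' processing notes name DESeq2 1.22.2 and GRCm38. The human build, and how reads matching both genomes were assigned, are not given in the sources used here. The lowest sum of a gene in either table is 72 reads.

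Groups follow the titles. The other field of MC + Chemo 5 reads MC, which was run as an alternative. Each sample is a separate mouse. For 3 libraries (Lean 3, MC 41 and MC 42) RNA was cleaned up once more.

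Counts were tested with edgeR 4.0.16 (quasi-likelihood F, TMM, filterByExpr, R 4.3.3) in 20 libraries, or 24 for Lean, with Benjamini-Hochberg adjustment over all genes. DESeq2 1.42.0 was the alternative. The log2 human minus mouse CPM (prior count 2) computed from these counts was tested with limma 3.58.1. The scripts were tested on simulated data. Values in each library are given for the 6 highest members per genome, those called or not overlapping CTRL with a mean above 30, ITGA10 and ILK. Members and lists were chosen with earlier results of these data known. No sequences or coordinates were used.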

Additional observations from a re-analysis of the deposited data

Results flagged for a closer look

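Of 80 groups of libraries looked at, 5 groups for each of the 16 members given in every library, 3 held a library far from the rest of its group on the log2 scale. Chance alone would set apart a library in about 1 of 20 groups. Human ILK in MC + Chemo 47 was at 508, against 578 to 618 in the other MC + Chemo tumors. Human ITGB1 in Chemo 33 was at 2448, against 2941 to 3089 in the other Chemo tumors. Mouse Itgb5 in Chemo 33 was at 1474, against 820 to 913 in the other Chemo tumors, and Chemo 33 also had the highest neutrophil marker sum of all libraries, 8893, whose part in the Itgb5 value was not tested.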

How the results depend on the processing

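With the groups compared tested alone, or without CTRL 17, CTRL 44 and Lean 24 (chosen after seeing the data), the number of human integrin genes called in MC + Chemo against CTRL was 0, down from 1, and leaving out 1 library at a time gave 0 to 2 (2 when CTRL 70 was left out, and 0 when it was CTRL 17, CTRL 44, or number 47 or 52 of MC + Chemo). Without CTRL 17 or CTRL 44 the mean count of ITGA10 was under 30, so that its call could not stand at any p. In Chemo against CTRL the number of human integrin genes called was 1 with DESeq2 and 0 to 2 leaving out 1 library (2 without CTRL 31 and 1 without CTRL 70). For tumor minus host pairs, leaving out 1 library gave 0 to 1 in Chemo against CTRL (1 without CTRL 31 or CTRL 70) and 0 to 1 in MC + Chemo against CTRL (1 without CTRL 31). Without CTRL 17, CTRL 44 and Lean 24, 30 of 76 human, 40 of 104 host and 25 of 76 pair differences of members from CTRL changed sign, over 4 comparisons. Among those with an unadjusted p under 0.05 with all libraries, 6 did, to 0.10 for ILK in Chemo, 0.071 for ILK in MC + Chemo, 0.19 for the ITGA10 pair in MC, -0.0090 for the ITGAV pair in MC + Chemo, and -0.064 in Chemo and -0.016 in Lean for the ITGB6 pair. Most reported counts are 0 and stayed at 0, which says little of their stability. Under total-count scaling 4 of 26 host members, in place of 10, were higher in MC + Chemo than in Chemo, 9 in place of 14 in MC than in CTRL, and 19 in place of 15 in Lean than in CTRL. No paired analysis was possible because the groups compared share no mouse numbers. The cause of these changes was not tested. With 4 CTRL tumors, 2 of which stood apart, differences from CTRL rest on few libraries.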
